A study of Mus musculus with 8 samples.

Results

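The basement membrane and anchoring collagens are 9 genes, chosen by name: the type IV chains Col4a1 to Col4a6, the anchoring fibril collagen Col7a1, and Col15a1 and Col18a1, whose products carry sugar chains and cleavable ends. All 9 were among the 17097 genes measured on the arrays, through 15 of 45141 probe sets. Where a gene had several probe sets, the one with the highest average level stood for it, and 6 of the 9 had a further, dimmer one. Levels were measured in dermal fibroblasts of 4 young mice aged 2 months and 4 old mice aged 18 months, with 1 array per mouse, to ask how age changes the transcriptome of these cells. The cells came from skin without subdermis, digested with collagenase and sorted for Pdgfra and CD34 and against CD45, CD117, CD24, CD31 and EpCam. The labels name no strain, sex or treatment. Values are log2 probe set levels, so a difference of 1 is a doubling.

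Basement membranes are thin sheets of matrix under epithelia and around vessels, nerves, muscle and fat cells. Their scaffold is a network of type IV collagen, built from triple helices that join at their ends, and a second network of laminin is tied to it by nidogens and the proteoglycan perlecan. The Col4a1 and Col4a2 chains form the type IV helix found in nearly all basement membranes. Col4a3, Col4a4 and Col4a5 form the helix of kidney filters, and Col4a5 and Col4a6 enter a helix found in skin and smooth muscle basement membranes. Type VII collagen forms the anchoring fibrils that fasten the epidermis to the dermis, and its loss causes skin blistering. Types XV and XVIII lie where basement membranes meet the surrounding matrix, and the released end of type XVIII is endostatin, an inhibitor of vessel growth. In skin, keratinocytes, fibroblasts, endothelial cells and mural cells all make members of this group.

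In old fibroblasts 7 of the 9 collagens fell, none rose and 2 did not pass the test (limma, Benjamini-Hochberg adjustment over all genes, threshold 0.05). At an unadjusted p under 0.05, 0 of the 9 were higher. Of all 17097 genes, 7.66% were called lower and 9.87% higher. Col4a5 fell most, 5.72-fold, and Col7a1 fell 2-fold. Col18a1, Col15a1, Col4a2, Col4a6 and Col4a4 fell by 0.38 to 0.60 on the log2 scale, whereas Col4a1 and Col4a3 did not pass. The median difference of the 9 genes was -0.48, beside 0.008 for all genes. For the 7 that fell, all 4 old mice lay below all 4 young mice, an arrangement seen in 9.66% of all genes. At the level of probe sets 11 of 15 were called lower, against 5.48% of all 45141. In such bulk samples, fewer cells of a type and less RNA per cell cannot be told apart.

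**Figure D1:**
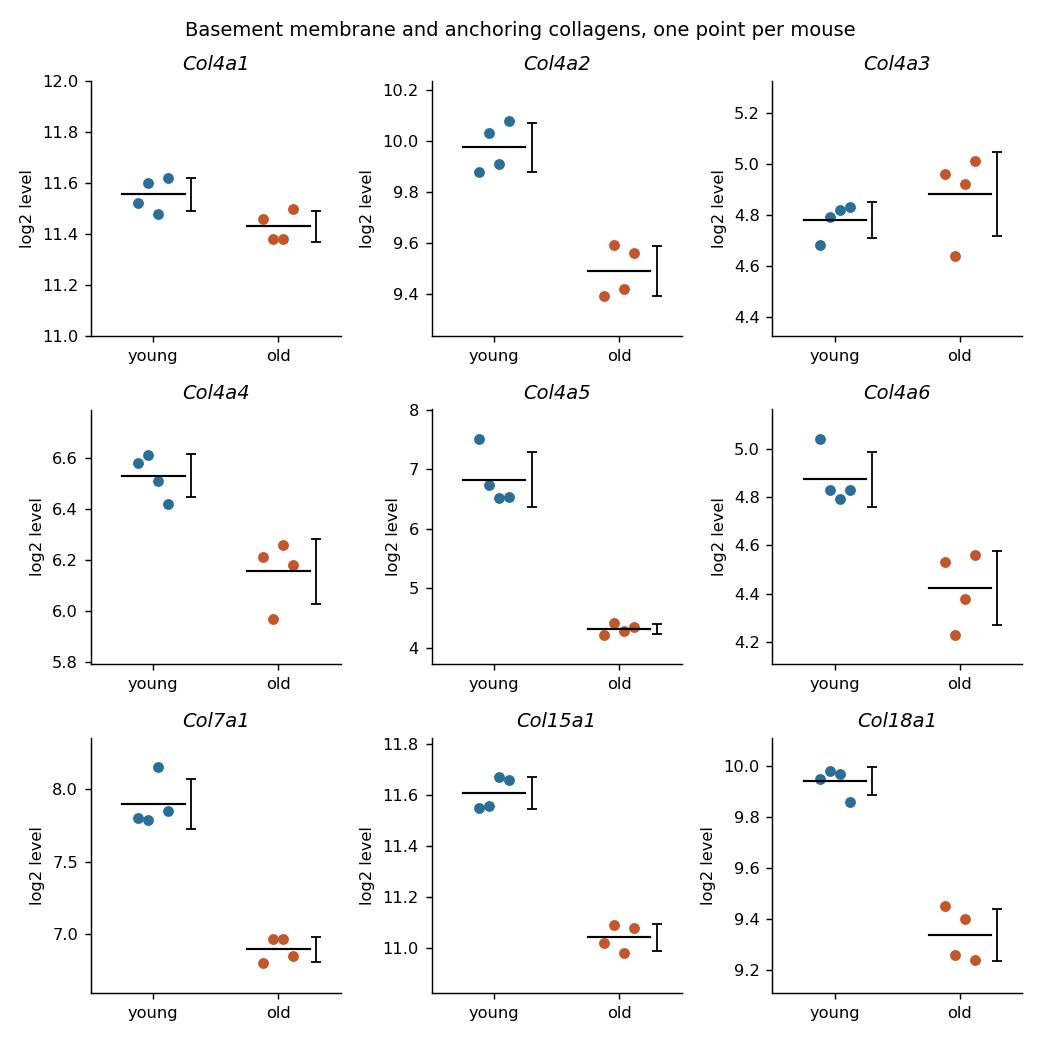
Log2 level of each of the 9 collagens (vertical axis, own scale per gene) in young (blue) and old (orange) mice, 1 point per mouse, with the mean (line) and SD (bar, n = 4). The old points lie below all young points except for Col4a1 and Col4a3, where the groups overlap.

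Values that bear on all of these differences follow. Per array, the 23 control probe sets for non-specific binding averaged 4.50 to 4.65 in young and 4.18 to 4.43 in old, so this background index also fell with age, by 0.25, and its groups did not overlap. The 11 of these sets with 15 or more G or C averaged 5.85 in young and 5.34 in old, a fall of 0.51, and the part of this in the collagen values was not tested beyond the fits with a covariate. With the index of all 23 sets as a covariate, all 9 collagens kept the sign of their difference and those of the 7 called genes were 0.76 to 1.16 times their size. Their standard errors grew 1.83 to 2.09 times, and 6 of the 7 calls were lost. Col4a5 was then the 1 called lower (-2.0, adjusted p = 0.041), when 0.573% of all genes were. At the lower end of the scale, 6 Y-linked genes read between 3.51 and 4.39 in these arrays, and a further one, Sry, between 5.83 and 6.23. The labels name no sex, but levels near 4 may hold no transcript if the mice were female. For some probe sets, as for Sry, such a floor may then lie near 6. The sort markers Pdgfra (0.16, adjusted p = 0.307) and Cd34 (-0.045, adjusted p = 0.729) did not pass the test. Of the genes sorted against, Ptprc (CD45) averaged 3.71 in young and 3.88 in old and Kit (CD117) 3.63 and 3.72, both near the floor. Pecam1 (CD31) read 4.83 to 5.30 in young and 4.74 to 5.81 in old, above the 6 Y-linked genes but below Sry. Its difference was 0.37 (adjusted p = 0.294, and 0.0149 without old replicate 1). Cd24a (CD24) averaged 7.27 in young and 6.60 in old (-0.67, adjusted p = 0.0515), and it passed under 8 alternatives. Of 10 fibroblast genes 1, Col3a1, fell and 9 did not pass, with Dcn the brightest (-0.09, adjusted p = 0.393). By limma at an unadjusted p under 0.05, 4 of these 10 were lower and 1 higher. The Col3a1 difference was -0.28 in its brightest probe set (adjusted p = 0.00765), -1.07 with the mean over its probe sets and -1.86 with the most variable one.

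The type IV chains lie in the genome as pairs of genes that point away from each other, and the partners of each pair were compared. To show how near the starts are, the RefSeq windows from 250 bases before to 50 after the annotated start are given for the pairs whose windows were both in the table (build GRCm38.p6). Each is written 5′ to 3′ on the gene's own strand, with matches to a CCAAT box (CCAAT or ATTGG) or a GC box (GGGCGG or CCGCCC) in capitals, both strands searched. The Col4a1 window is chr8:11312777-11313076 on the minus strand, and that of Col4a2 is chr8:11312555-11312854 on the plus strand.
Col4a1: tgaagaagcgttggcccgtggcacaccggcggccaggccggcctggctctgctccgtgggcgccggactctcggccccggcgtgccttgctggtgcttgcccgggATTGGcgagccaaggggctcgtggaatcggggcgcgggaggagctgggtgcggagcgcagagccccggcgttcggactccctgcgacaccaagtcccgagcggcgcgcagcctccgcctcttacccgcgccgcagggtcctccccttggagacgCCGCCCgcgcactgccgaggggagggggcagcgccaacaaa
Col4a2: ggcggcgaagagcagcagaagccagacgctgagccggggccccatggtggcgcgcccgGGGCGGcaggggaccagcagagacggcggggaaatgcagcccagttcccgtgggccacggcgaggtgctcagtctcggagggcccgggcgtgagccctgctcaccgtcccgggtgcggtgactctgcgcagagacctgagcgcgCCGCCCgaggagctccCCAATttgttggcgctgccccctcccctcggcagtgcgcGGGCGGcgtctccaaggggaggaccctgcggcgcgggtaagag

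The annotated starts of Col4a1 and Col4a2 are 21 bases apart, and the transcripts overlap at their first 22 bases. The windows share 78 bases, and the GC box 10 bases into Col4a1 and the one 8 bases into Col4a2 are the same letters, read from opposite strands. Col4a2 has a further GC box 192 and another 48 bases before its start and a CCAAT box at 32, and Col4a1 has 1 CCAAT box 145 bases before its start. G and C make up 74.0% of the Col4a1 window and 73.7% of that of Col4a2, against a median of 52.7% over 32851 windows of this length. A CCAAT box lies in 37.4% of those windows, a GC box in 35.7% and a TATA box (TATAAA or TTTATA) in 13.6%. Neither window of this pair holds the TATA letters.

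The common pair did not change as one. Col4a1 read 11.52, 11.60, 11.48 and 11.62 in the young mice and 11.46, 11.38, 11.38 and 11.50 in the old. The groups overlapped by the highest old and the lowest young mouse, and the difference was -0.12 (95% interval -0.26 to 0.013, adjusted p = 0.208). Its dimmer probe set gave -0.20 and did not pass either (adjusted p = 0.108). Col4a2 read 9.88, 10.03, 9.91 and 10.08 in young and 9.39, 9.59, 9.42 and 9.56 in old. All old mice lay below all young mice, by at least 0.29, and the fall was 1.40-fold (log2 difference -0.48 ± 0.07 SE, adjusted p = 0.00181).

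Levels of different probe sets are not on 1 scale, so only the change of a gap between ages is read. How often gaps of other gene pairs lie apart between ages was not measured. Within each mouse, the gap of Col4a1 over Col4a2 was 1.58 ± 0.04 in young and 1.94 ± 0.12 in old (SD, n = 4 each). It was wider in old by 0.36 ± 0.06 (SE), with no overlap between groups (exact 2-sided permutation test, p = 0.0286, 0.0286 adjusted over the 3 pairs, the smallest p that 4 against 4 mice allow). Without young replicate 4 it was 0.35 and did not pass (exact permutation p = 0.0571). With the dimmer Col4a1 probe set the gap widened by 0.28, with the same p. The Col4a1 probe set is bright, in a table whose highest value is 13.04, and differences near the top of an array's range are compressed. How much of the unequal change this makes was not tested.

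**Figure D2:**
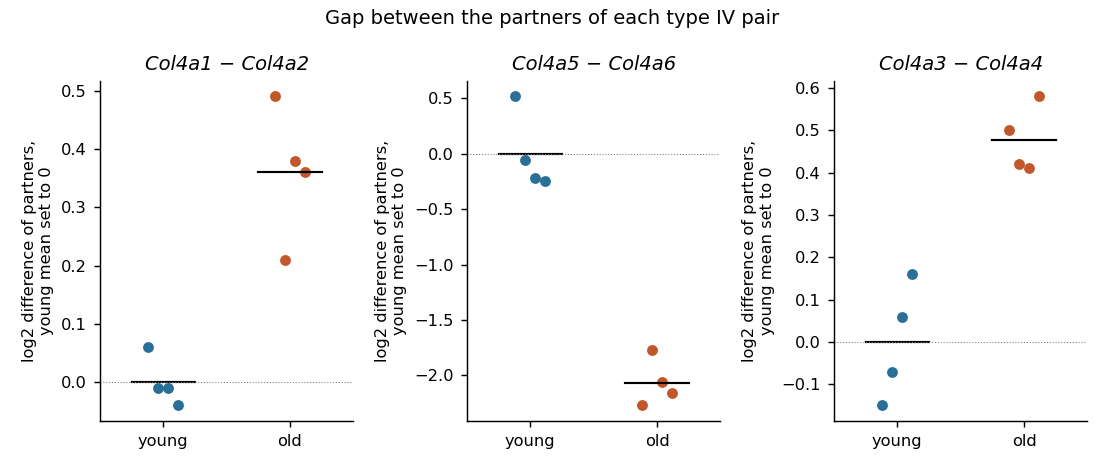
Log2 level of one partner minus the other in each mouse (vertical axis, mean of the young mice set to 0) for the 3 type IV pairs, young in blue and old in orange, with the group mean as a line (n = 4). In every pair the gap of all 4 old mice lies apart from that of all 4 young mice, by a mean of 0.36, -2.07 and 0.48. Col4a2, Col4a4, Col4a5 and Col4a6 taken singly also lie apart, as do 21.3% of all genes in either direction. The share of other gene pairs with such gaps was not measured.

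The X-linked pair lies further apart. The window of Col4a5 is chrX:141475169-141475468 on the plus strand and that of Col4a6 chrX:141474027-141474326 on the minus strand, shown to compare with the pair above.
Col4a5: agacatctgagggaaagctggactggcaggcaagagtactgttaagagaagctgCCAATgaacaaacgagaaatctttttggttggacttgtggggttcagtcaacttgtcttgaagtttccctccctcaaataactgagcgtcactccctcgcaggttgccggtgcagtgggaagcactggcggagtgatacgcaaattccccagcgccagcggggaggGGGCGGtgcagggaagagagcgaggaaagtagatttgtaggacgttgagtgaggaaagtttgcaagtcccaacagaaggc
Col4a6: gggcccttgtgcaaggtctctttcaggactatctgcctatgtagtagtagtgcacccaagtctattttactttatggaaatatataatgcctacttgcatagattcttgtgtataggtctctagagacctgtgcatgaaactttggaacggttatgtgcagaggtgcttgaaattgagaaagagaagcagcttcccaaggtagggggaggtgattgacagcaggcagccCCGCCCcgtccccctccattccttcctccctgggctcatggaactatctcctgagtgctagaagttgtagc

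The starts of Col4a5 and Col4a6 are 1343 bases apart, and the windows share no base. G and C make up 52.7% of the Col4a5 window and 48.3% of that of Col4a6. Col4a5 has a GC box 30 bases and a CCAAT box 196 bases before its start, and Col4a6 has a GC box 21 bases before its start and no CCAAT letters. No TATA letters were found in either window.

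Col4a5 changed most of the group. It read 7.51, 6.73, 6.52 and 6.54 in the young mice and 4.21, 4.41, 4.27 and 4.35 in the old. The lowest young mouse lay 2.11 above the highest old one, and young replicate 1 stood above the other young mice. The difference was -2.52 ± 0.19 (SE, adjusted p = 4.13e-05), the 10th largest of the 1310 decreases called. The old level lay where Y-linked genes also read, so 5.72-fold is the change of the measured values only. The dimmer probe set read 6.28, 5.82, 5.51 and 5.45 in young and 3.87 to 3.97 in old (-1.84 ± 0.16 SE), with young replicate 1 again highest. Without that mouse the difference of the brighter probe set was -2.29 (adjusted p = 4.03e-06).

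Col4a6 read 5.04, 4.83, 4.79 and 4.83 in young and 4.53, 4.23, 4.38 and 4.56 in old, close to the floor in both groups. The groups did not overlap, and the difference was -0.45 ± 0.09 (SE, adjusted p = 0.00762). The dimmer probe set fell by 0.68 on the log2 scale (adjusted p = 0.0103 for the brighter and 0.00435 for the dimmer in the fit over all probe sets), again with young replicate 1 highest, at 5.16. Without that mouse the difference of the brighter probe set was -0.39 (adjusted p = 0.0185). That mouse also had the highest background index, 4.65 against 4.50 to 4.54 in the other young mice, and the part of this in its values was not tested.

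The gap of Col4a5 over Col4a6 was 1.95 ± 0.36 in young and -0.12 ± 0.22 in old (SD, n = 4 each), a change of -2.07 ± 0.21 (SE; exact 2-sided permutation test, p = 0.0286, 0.0286 adjusted over 3 pairs). With the dimmer probe sets of both genes the change was -1.15, and with the background index as a covariate -1.59. Col4a6 lay near the floor in young mice already, and the part of this in the change of the gap was not tested.

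In the remaining pair, Col4a3 lay near the floor and Col4a4 above the array medians of 5.19 to 5.34. Col4a4 read 6.58, 6.61, 6.51 and 6.42 in young and 6.21, 5.97, 6.26 and 6.18 in old, without overlap, a difference of -0.38 ± 0.08 (SE, adjusted p = 0.00933). Its dimmer probe set gave -0.33. Col4a3 read 4.68 to 4.83 in young and 4.64 to 5.01 in old. Those groups overlapped, and the difference of 0.10 (95% interval -0.09 to 0.30, adjusted p = 0.484) turned to -0.047 with its other probe set.

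The gap of Col4a3 over Col4a4 rose by 0.48 ± 0.08 (SE; exact 2-sided permutation test, p = 0.0286, 0.0286 adjusted over 3 pairs). It was 0.33 with the other Col4a3 probe set (exact permutation p = 0.114), so this result rests on the choice of a probe set near the floor. The Col4a4 window was in the RefSeq table and held none of the 3 motifs, and Col4a3 was not in it.

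Apart from age, no likeness between partners passed a test. The deviations from the age means over the 8 mice had Pearson r = 0.48 for Col4a1 and Col4a2 (exact permutation within ages p = 0.267, 0.286 adjusted over 3 pairs), with Spearman rho = 0.34 (exact permutation p = 0.448, adjusted 0.698). For Col4a5 and Col4a6 r was 0.49 (exact permutation p = 0.188, adjusted 0.286) and rho 0.31 (0.465, adjusted 0.698). For Col4a3 and Col4a4 r was 0.56 (exact permutation p = 0.286, adjusted 0.286) and rho 0.07 (0.922, adjusted 0.922). Leaving out, in each pair, the 2 mice whose first partner lay farthest from its median deviation gave r = 0.32, -0.15 and -0.11. They were young 3 and old 4, then young 1 and young 3, then young 1 and old 2. Removing extreme mice narrows the range, so how far r rested on them cannot be read from this. Ranked by r among 17096 genes, Col4a2 stood 3177th in likeness to Col4a1 and Col4a6 2576th in likeness to Col4a5. The genes most like Col4a1 were Gm20611 (r = 0.996), Fstl3 (0.992) and Suz12 (0.975), and those most like Col4a5 were Hcrtr2 (0.992), Klk1b1 (0.976) and Pnmal1 (0.971). Those most like Col4a3, where Col4a4 stood 2207th, were Vps45 (r = 0.967), Zik1 (0.953) and Mindy2 (0.953), all over 8 mice and as a description only.

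**Figure D3:**
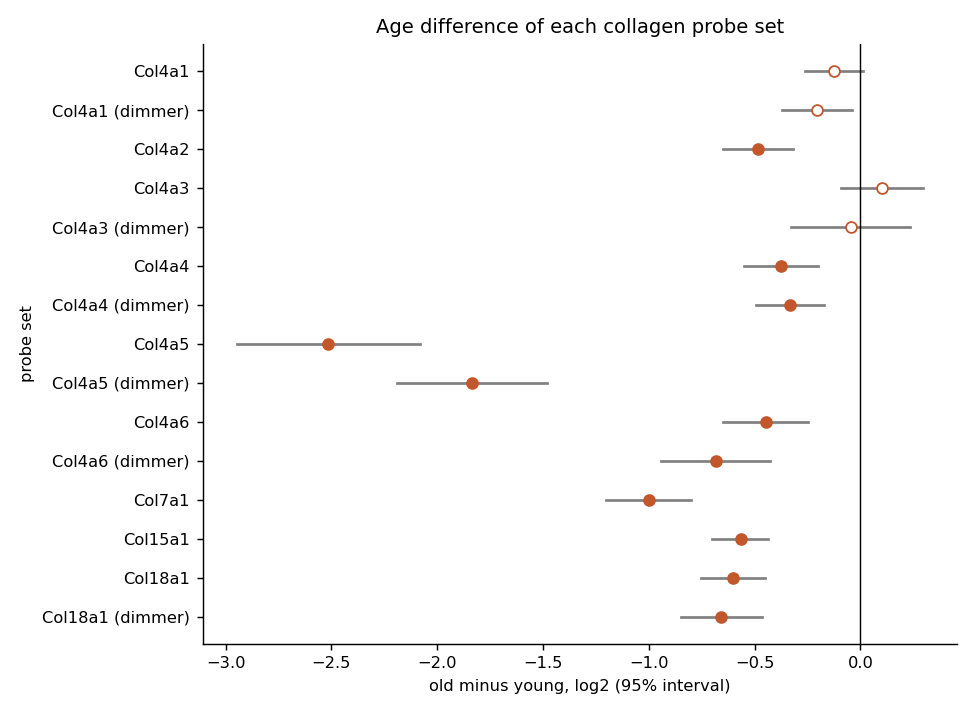
Old minus young log2 difference (horizontal axis) of the 15 probe sets of the 9 genes, with the 95% interval of the limma fit over all probe sets. Filled points passed the adjusted threshold of 0.05, and the 4 open points are the probe sets of Col4a1 and Col4a3.

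Col7a1, the anchoring fibril collagen, read 7.80, 7.79, 8.15 and 7.85 in young and 6.80, 6.97, 6.97 and 6.85 in old. The lowest young mouse lay 0.82 above the highest old one, and the level fell 2-fold (log2 difference -1.0 ± 0.09 SE, adjusted p = 1.06e-04). Young replicate 3 was the highest, and without it the difference was -0.92 (adjusted p = 2.06e-04). Keratinocytes also make type VII collagen. Of 13 measured keratinocyte markers 4 rose, 1 fell (Trp63, -0.41, adjusted p = 0.0237, named after its value was seen) and 8 did not pass, with a median difference of 0.65. Among all genes, 9.87% were called higher and 7.66% lower. The summed linear level of these markers was 2194 to 5691 in young and 4330 to 9807 in old. Krt14 rose by 1.65 (adjusted p = 0.00469) and Krt5, the brightest, by 1.04 (adjusted p = 0.0379), and Epcam, a marker the sort selected against, averaged 4.25 in young and 4.59 in old. Krt5 lost its call without any of 6 of the 8 mice. Young replicate 3 had the highest mean of keratinocyte markers in its group, 7.85 against 6.73 to 7.15, and the part of this in its Col7a1 value was not tested.

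Col15a1, abundant around vessels and muscle, read 11.55, 11.56, 11.67 and 11.66 in young and 11.02, 11.09, 10.98 and 11.08 in old. The groups lay 0.46 apart, with SDs of 0.06 and 0.05, and the difference was -0.57 ± 0.06 (SE, adjusted p = 2.56e-04). Col18a1, the endostatin precursor, read 9.95, 9.98, 9.97 and 9.86 in young and 9.45, 9.26, 9.40 and 9.24 in old. All old mice lay at least 0.41 below the young, a difference of -0.60 ± 0.07 (SE, adjusted p = 3.66e-04). Its dimmer probe set fell by 0.66 and read 9.35 to 9.40 in young but 8.52 to 8.95 in old. The intervals of Col15a1 (-0.70 to -0.43) and Col18a1 (-0.76 to -0.45) overlap, and the difference between these related genes was not tested.

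**Figure D4:**
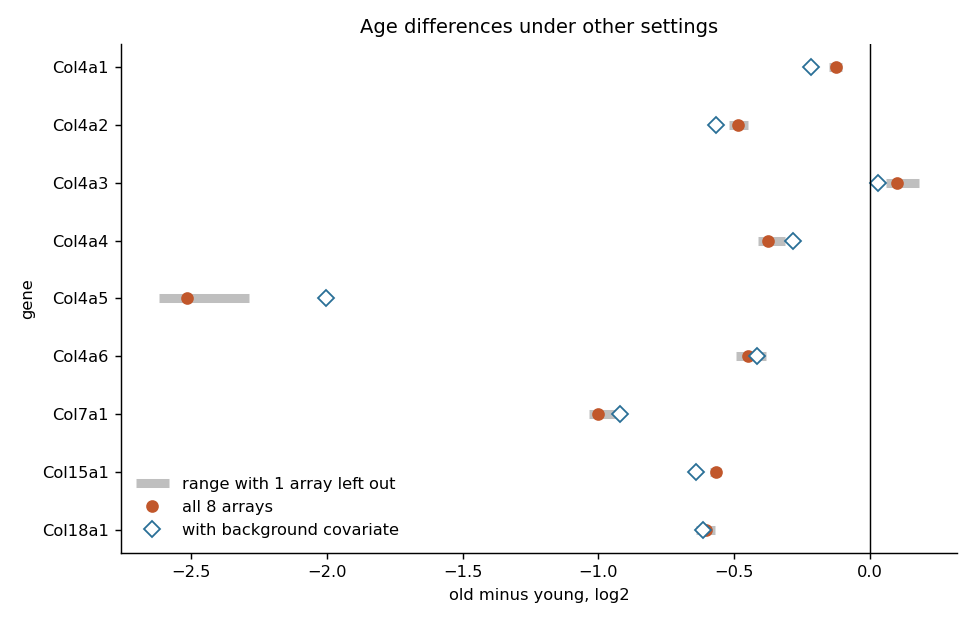
Old minus young log2 difference (horizontal axis) of each collagen with all 8 arrays (filled circle), its range when 1 array at a time is left out (grey bar), and with the background index added to the fit (open diamond). Col4a5 moves from -2.52 to -2.0 with the covariate, and no gene changes sign in these settings.

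Vessel and nerve cells also make these collagens. Of 12 endothelial markers 3 rose and 1 fell (Egfl7, -0.305, adjusted p = 0.0333 by limma, named after its value was seen). Their summed linear level was 332 to 409 in young and 458 to 611 in old. The mean log2 levels of the list overlapped, at 4.62 to 4.72 in young and 4.70 to 5.02 in old. Tek, the brightest, rose by 1.73 and held 23.3% of the sum in young and 47.3% in old. Prox1 rose by 0.56 (0.30 with the mean over its probe sets). Cdh5 and Vwf define endothelium and were named after their values were seen. They averaged 4.38 and 3.88 in young and 4.48 and 4.05 in old, near the floor. Pecam1 lay higher than both, though below Sry, as given above. Of 9 mural cell markers 1 rose, Kcnj8 (0.64, adjusted p = 0.0429; the call was lost without 7 of the 8 mice), with sums of 762 to 835 and 1013 to 1235. None of 5 Schwann cell markers passed by limma (Pmp22 brightest at 0.17, Erbb3 closest at adjusted p = 0.0522 and called under 7 of the alternatives) and none of 5 adipocyte markers (Lpl 0.17, Plin4 0.22). At an unadjusted p under 0.05 the counts were 3 and 0, all higher in old. Schwann sums were 3763 to 4031 in young and 4203 to 4801 in old, and adipocyte sums 733 to 860 and 838 to 960. Pmp22 made up 96.8% of the Schwann sum in both groups. Of 10 macrophage and leukocyte markers 2 rose and 1 fell, the receptor Csf1r (-1.92, adjusted p = 5.90e-06), with sums of 713 to 881 in young and 567 to 611 in old. Csf1r held 47.9% of that sum in young and 17.3% in old, the mean log2 levels of the list overlapped (5.29 to 5.42 and 5.37 to 5.42), and the genes that rose were Lyz2 (1.08) and Tyrobp (0.67), named after their values were seen. Of 6 melanocyte markers 1 rose (Mitf, 0.30, a call lost without any of 6 mice) and 1 fell, with sums of 848 to 934 and 960 to 1211, of which Mitf held 88.1% and 91.0%. Sums did not overlap between ages for endothelial, mural, Schwann, macrophage and leukocyte, and melanocyte markers. All of these but the macrophage and leukocyte sums were higher in old. The summed levels of the 10 fibroblast genes did not overlap either and were lower in old. They were 36373 to 37610 in young and 33442 to 35129 in old. Mean log2 levels of the fibroblast genes did not overlap (11.18 to 11.31 and 11.07 to 11.17). Kcnj8 held 44.9% of the mural sum in young and 49.3% in old. Mean log2 levels overlapped for melanocyte markers too (5.1 to 5.25 and 5.11 to 5.21), but not for mural or Schwann markers. Among all genes taken singly, the groups did not overlap in 21.3%, in either direction. Beside the counts called in these marker lists, 9.87% of all genes were called higher and 7.66% lower. The part of other cells in the collagen levels was not tested.

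Genes of collagen assembly and cross-linking, such as enzymes and chaperones, came next. Of 22 measured, 11 fell, 2 rose and 9 did not pass, with a median difference of -0.29 beside 0.008 for all genes. Among all genes, 7.66% were called lower and 9.87% higher. The lysyl hydroxylase Plod1 fell by 1.42 on the log2 scale (by 0.87 with the mean over its probe sets), the prolyl hydroxylase subunit P4ha2 by 1.18, and P3h1, which also modifies proline (-0.88), and the cross-linking enzyme Loxl2 (-0.73) fell as well. These enzymes serve fibrillar collagens as well. Pxdn, which makes the bond that joins type IV helices at their ends, was named after its value was seen and did not pass (0.21, adjusted p = 0.319).

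Of 18 measured non-collagen partners of the basement membrane 2 rose, 3 fell and 13 did not pass, with a median of 0.11, beside 9.87% of all genes called higher and 7.66% lower. The proteoglycan agrin, Agrn, rose by 1.14 (adjusted p = 9.34e-05). Smoc2 fell by 1.03 on the log2 scale, perlecan, Hspg2, by 0.50 and the collagen-binding Sparc by 0.34. The laminin genes Lama2 (0.18), Lamb1 (0.15) and Lamc1 (0.075) and the nidogen Nid1 (0.22), named after their values were seen, did not pass (adjusted p = 0.262 to 0.544). Lamb1 passed with the mean over its probe sets (0.24, adjusted p = 0.0375).

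At the junction of epidermis and dermis, 2 of 13 measured genes rose, 2 fell and 9 did not pass, with a median of 0.13. The shares of all genes were 9.87% called higher and 7.66% lower. Frem1, of the Fraser complex that holds epidermis and dermis together, fell by 1.99 (adjusted p = 1.46e-04), and the transmembrane collagen Col13a1 by 1.58 (adjusted p = 6.94e-06). The linker genes Dst (0.46) and Plec (0.28) rose. The Dst difference was 0.74 with the mean over its probe sets and 1.65 with the most variable one. Plec lost its call after a further quantile normalization, with the background covariate or without any of 6 mice.

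Of 18 genes that process or cut matrix, 2 rose, 6 fell and 10 did not pass, with a median of -0.09. Among all genes, 9.87% were called higher and 7.66% lower. Mmp3 fell by 1.09 and Mmp2, a protease of type IV collagen, by 0.60, while the cathepsin gene Ctss rose by 1.29 and Tll1 by 0.95. The call of Mmp2 was lost without any young mouse or old replicate 4, and its difference was -0.037 with the background index as a covariate. Of 17 receptor genes 2 rose, none fell and 15 did not pass, with a median of 0.05, beside the same shares of all genes. By limma at an unadjusted p under 0.05, 3 were higher and 2 lower. Itga5, of the fibronectin receptor, rose by 0.70 (adjusted p = 0.0483) and the collagen receptor Ddr2 by 0.35 (adjusted p = 0.0217), or 0.54 with its most variable probe set. Itga5 lost its call without any of 6 mice and Ddr2 without any of 3. Across these groups and the marker lists, 26 called genes are named besides the collagens, and 8 of them were still called with the background index as a covariate (Smoc2, Col13a1, Plod1, P4ha2, P3h1, Loxl2, Tek and Csf1r).

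**Figure D5:**
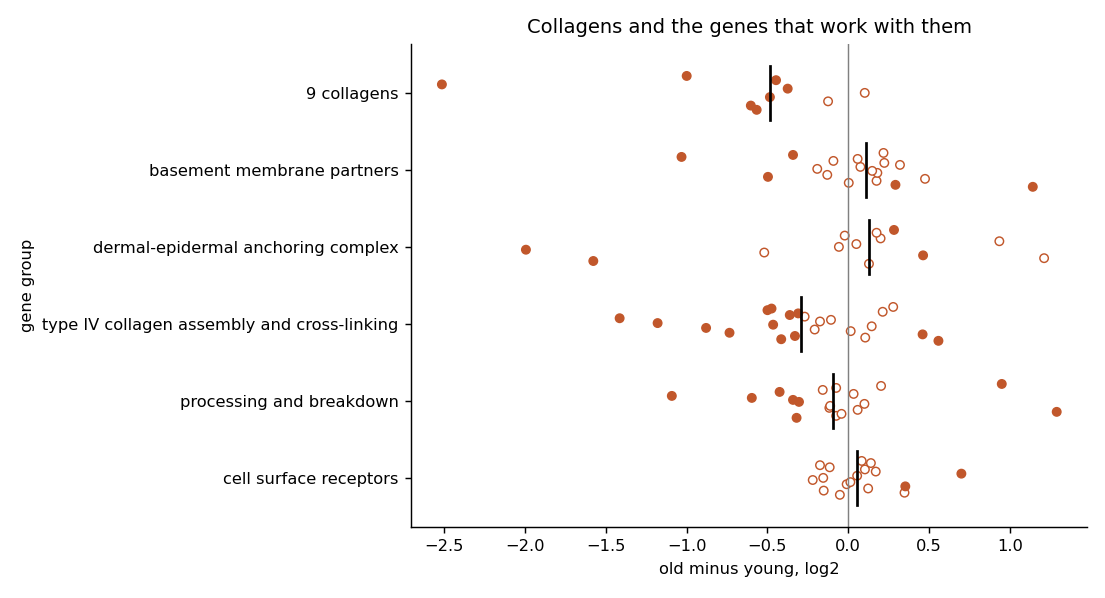
Old minus young log2 difference (horizontal axis) of the 9 collagens and of the 5 groups of partner genes, 1 point per gene, filled where the adjusted p was under 0.05, with the group median as a line. The collagens (median -0.48) and their assembly genes (-0.29) lie mostly to the left of 0, and the other groups spread to both sides.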

How the data were processed

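Transcripts of sorted skin fibroblasts from 4 young and 4 old animals were measured on Affymetrix perfect-match arrays, 1 per mouse. The deposited values are log2 probe set levels made with RMA and the R package affy, per the submitters' processing notes, versions not given in the sources used here. RMA corrects background, aligns array distributions and summarises probes, which compresses differences near background and near the top. Array medians were 5.19 to 5.34.

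Of 45141 probe sets, 28898 had 1 gene symbol in the platform annotation, 551 several and 15692 none. Names were updated by gene ID (28689 matched). Each of 17097 genes took its probe set of highest mean. The age comparison used limma 3.58.1 under R 4.3.3, with a moderated 2-sided test and age as the sole term, and pair gaps used an exact permutation test over samples. Tested on simulated data of the age comparison (17097 genes), limma recovered 67% of genes changed by 0.5 and 91% of those changed by 1 (log2). Of the simulated calls 1.86% were false. In that simulation 200 genes changed, noise was independent between genes, and no background shift separated the ages. In the arrays 2998 genes were called and the background index differed with age, so the share of false calls there was not measured. Figures used matplotlib 3.10.9.

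Members and gene lists were chosen with earlier results of these data known. Named are all 9 members, up to 4 called genes of largest change per partner group, the brightest gene and the one of smallest p per cell type list, the sort genes, and the 3 genes most like a pair's first member; others are said to be named after their values were seen. The number of arrays limits the precision. The series text says 1 mouse of each age was taken per day, but no label ties specimen numbers to days. Deviations of same-numbered mice correlated at 0.28, 0.05, -0.04 and 0.22. Those of differently numbered mice ran from -0.255 to 0.213, below the 0.28 and 0.22. These values do not settle whether the numbers mark days, and without a label the main fit did not use them as pairs. A fit with the number as a block is given as an alternative.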

Additional observations from a re-analysis of the deposited data

Results flagged for a closer look

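Of 24 groups of 4 mice checked for a value far from the rest (each collagen and each pair gap, in young and in old), 2 were flagged, and chance flags about 1 in 20. Col4a6 in young had replicate 1 at 5.04, against 4.79 to 4.83 in the other 3 mice. Col7a1 in young had replicate 3 at 8.15, against 7.79 to 7.85.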

How the results depend on the processing

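The 7 calls among the collagens were kept under all alternatives in which the gene was tested (each array left out, other scaling, other probe sets, the replicate block, array weights, trend and robust settings, dim genes left out), except with a background covariate. Leaving out dim genes removed Col4a3, Col4a5 and Col4a6. With all non-specific control sets as the covariate 98 genes were lower and 73 higher, and 1 collagen was lower. With the sets of 15 or more G or C, an alternative chosen after seeing the data, the counts were 96, 67 and 1. Without the covariate they were 1310, 1688 and 7. After a further quantile normalization 45.2% of all calls were higher, against 56.3%, while the 7 collagen calls were kept. With the replicate block 1268 genes were lower and 1838 higher, and it changed no call of a collagen. Paired by number, the mean changes of the gaps (0.36, -2.07 and 0.48) equal the unpaired ones by construction, with SEs of 0.047, 0.24 and 0.064 against 0.061, 0.21 and 0.079. Col4a3 reversed with the most variable probe set, to -0.047. With the covariate of G and C rich sets, Mmp2 (0.001), Pxdn (-0.021) and Lamc1 (-0.0) reversed, and Dcn did with both covariates (0.036 and 0.052). Of the 26 named genes called besides the collagens, 19 to 24 were still called with 1 mouse left out, 22 after a further quantile normalization and 24 with arrays centred on their medians. The Col4a3 and Col4a4 gap was 0.33 with the most variable or the dimmer Col4a3 probe set (exact permutation p = 0.114 each), 0.28 with the dimmer sets of both (exact permutation p = 0.143), and 0.31 with the background covariate. The Col4a5 and Col4a6 gap was -1.59 with that covariate. Leaving out 1 mouse gave gaps of 0.32 to 0.41 for Col4a1 and Col4a2, -2.17 to -1.89 for Col4a5 and Col4a6 and 0.43 to 0.53 for Col4a3 and Col4a4. Each passed the exact permutation test (p = 0.0286, the smallest that 3 against 4 mice allow) except the first gap without young replicate 4 (exact permutation p = 0.0571). Signals near the floor limit what Col4a3, Col4a6 and the old Col4a5 values can show.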
